A study of Caenorhabditis elegans with 2 samples.

Results

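The genes described are the 10 Caenorhabditis elegans lysozyme genes lys-1 to lys-10, out of 19973 protein-coding genes of the nuclear genome. They were chosen by name and family and not by any measured value, but with earlier results of these data known. The data are the regions deposited from chromatin immunoprecipitation sequencing (ChIP-seq) of SMA-3, in 2 biological replicates of 1 group and no second condition. Both replicates were whole L2 hermaphrodites of strain CS152, collected 24 hours after synchronisation at the starved L1 stage. All animals carried the sma-3(wk30) mutant allele and the transgene qcIs, which holds gfp::sma-3 together with the marker rol-6, and the antibody was directed against GFP. That notation writes gfp ahead of sma-3, while a further label places a GFP-FLAG tag at the C-terminus of SMA-3, so the orientation of the fusion is not settled here. No source used here gives the promoter that drives the transgene, and no immunoprecipitation from an untagged strain was analysed. Whole animals pool all tissues, so a region that is occupied in few cells and one that is occupied weakly in many cannot be told apart.

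SMA-3 is a receptor-regulated Smad of the DBL-1 pathway, a BMP-like signalling route that governs how large the worm grows and also takes part in its defence against bacteria. Ligand-bound receptors phosphorylate such Smads, which then enter the nucleus and act with co-Smads and other factors at DNA. Lysozymes cut the peptidoglycan of bacterial cell walls, and in C. elegans many of them are made in the intestine, where they serve in digestion and in immunity. The genes lys-1 to lys-10 encode lysozymes of a type resembling those of protists, while a separate family, the ilys genes, encodes invertebrate-type lysozymes. Expression of lys-8 is known to depend on DBL-1, and lys-7 is a known target of the FOXO factor DAF-16.

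The 10 genes lie at 6 places in the genome. The genes lys-1, lys-2 and lys-3 stand side by side on chromosome V with gaps of 1250 and 625 bp, and lys-4, lys-5 and lys-6 on chromosome IV with gaps of 1077 and 1327 bp. The other 4 genes stand apart from further members of the family. Coding lengths fall into a longer group, lys-1, lys-2, lys-3, lys-7 and lys-8, at 837 to 903 bp, and a shorter group, lys-4, lys-5, lys-6, lys-9 and lys-10, at 642 to 690 bp. Both local clusters hold members of 1 length group.

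The DNA under selected regions near these genes is shown first, for reference. The region at pooled rank 6759, in cdc-14 near lys-8, is not among them. Each sequence was read from the RefSeq genome of assembly WBcel235, which is ce11, and runs 5′ to 3′ on the strand of the lys gene named. None overlaps an annotated exon of a protein-coding gene. Capitals mark matches on either strand to the letters TGATAA or CTTATCA, which GATA factors of the intestine bind, to GTAAACA, a DAF-16 site, or to CACGTG, an E-box. No capitals mark Smad letters because the searched ones did not occur in these windows. The stretch before lys-8 covers chrII:5585878-5586177 on the plus strand and ends 1 base before its annotated start. The stretch before lys-2 covers chrV:10281482-10281632 on the minus strand, that between lys-1 and lys-2 chrV:10280121-10280271 on the minus strand, and that between lys-4 and lys-5 chrIV:11623875-11624025 on the minus strand. The stretch past lys-10 covers chrIV:8334068-8334218 on the plus strand. These 4 windows reach 75 bp to either side of a summit, the point of a region that the authors' caller marked as highest. The stretch before lys-7 covers chrV:3482601-3482850 on the minus strand and ends 1 base before that gene's start, and is shown as an upstream sequence at which the pooled list had no region.
before lys-8: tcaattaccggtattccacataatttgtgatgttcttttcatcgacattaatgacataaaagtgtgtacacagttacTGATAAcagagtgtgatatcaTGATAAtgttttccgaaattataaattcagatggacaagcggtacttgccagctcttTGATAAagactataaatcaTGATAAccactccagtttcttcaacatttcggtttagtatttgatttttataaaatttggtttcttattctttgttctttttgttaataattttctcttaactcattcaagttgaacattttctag
before lys-2: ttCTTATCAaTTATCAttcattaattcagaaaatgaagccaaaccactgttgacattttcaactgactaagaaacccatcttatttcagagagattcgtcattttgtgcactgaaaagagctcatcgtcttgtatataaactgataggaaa
between lys-1 and lys-2: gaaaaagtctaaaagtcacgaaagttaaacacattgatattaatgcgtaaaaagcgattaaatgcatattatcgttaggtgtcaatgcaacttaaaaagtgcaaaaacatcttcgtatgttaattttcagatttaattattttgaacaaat
between lys-4 and lys-5: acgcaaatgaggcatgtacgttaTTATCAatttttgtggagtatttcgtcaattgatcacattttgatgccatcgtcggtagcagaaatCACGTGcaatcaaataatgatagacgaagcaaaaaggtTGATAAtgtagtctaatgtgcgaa
past lys-10: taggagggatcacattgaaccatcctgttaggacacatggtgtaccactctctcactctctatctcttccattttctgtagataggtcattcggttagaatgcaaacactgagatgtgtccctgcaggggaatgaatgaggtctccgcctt
before lys-7: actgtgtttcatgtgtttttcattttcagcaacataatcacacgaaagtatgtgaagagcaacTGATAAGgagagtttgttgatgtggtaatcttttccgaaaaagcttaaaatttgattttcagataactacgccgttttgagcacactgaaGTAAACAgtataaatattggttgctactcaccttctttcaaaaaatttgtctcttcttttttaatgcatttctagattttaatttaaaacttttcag

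The authors deposited 4 lists of regions on ce11. Each replicate has a list of 30000 regions, and a further 30000 were called on the pooled replicates. The optimal list, labelled as thresholded by IDR (irreproducible discovery rate, a measure of agreement between replicates), holds 4205 pooled regions. These are the 4205 with the highest signal, the score that the authors' caller gave each region, on a scale that no source used here describes. Rank 1 is the region of highest signal within a list, so ranks from 1 to 4205 of the pooled list make up the optimal list and the rest include weak background regions. The lowest signal in the optimal list was 70.1, and signal in the pooled list ran from 10.5 to 1762 with a median of 20.8. A gene was credited with a region when the summit fell inside it or no more than 5000 bp away. The pooled list and each replicate list hold exactly 30000 regions, so a gene with no region had none among those listed. That is not the same as none at all, and read depth is also unknown from these lists.

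In the optimal list, 1 of the 10 lys genes, lys-10, had a region, against 38.6% of all protein-coding genes. In the pooled list 8 of 10 had a region, all but lys-7 and lys-9, against 76.9% of all genes. The replicate 1 list held a region for 9 of 10, all but lys-9, against 84.1% of all genes, and the replicate 2 list for all 10, against 81.7%. In both replicate lists 9 of 10 had a region, against 76.5% of all genes. The pooled and replicate counts were thus close to what the share over all genes gives for 10 genes, so they say nothing particular of the lys genes, and the optimal count was below that share. No test was made on these counts, since 10 chosen genes of which 6 share regions are not independent draws.

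Within promoters the lys genes had no region in the optimal list. A promoter here spans 1000 bp upstream to 200 bp downstream of any annotated start of a protein-coding transcript. Each lys gene has 1 such start, while the 19973 protein-coding genes have 29314, and a gene with more starts has more windows. Of 10 lys promoters, 0 held an optimal summit, against 14.3% of all genes. In the pooled list 4 of 10 did, those of lys-1, lys-2, lys-4 and lys-8, against 41.5% of all genes. In both replicate lists 5 of 10 did, the same 4 and lys-7, against 34.2%. Annotated starts in this worm are often the sites of trans-splicing, so they can lie downstream of where transcription begins.

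The 8 genes with a pooled region had their highest one at a median rank of 6959, while the 15356 protein-coding genes with a pooled region had a median of 4183. A shared region enters the lys median once per gene: lys-1 to lys-3 share that at rank 6959 and lys-4 to lys-6 that at rank 7833. Both groups also share their highest region in each replicate list. In the replicate 1 list the medians were rank 7856 over 9 lys genes and rank 4973 over 16794 genes. In the replicate 2 list they were rank 9821.5 over 10 lys genes and rank 4673 over 16318 genes. Among genes with a region, the lys median was thus at a larger rank number, meaning lower signal, in each of the 3 lists, although lys-10 was at a smaller rank number than the median of all genes in each. Among all 19973 genes, 22.7% had a higher pooled region than lys-10, 45.3% a higher one than lys-8, 50.4% a higher one than lys-1 to lys-3, and 52.8% a higher one than lys-4 to lys-6.

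**Figure D1:**
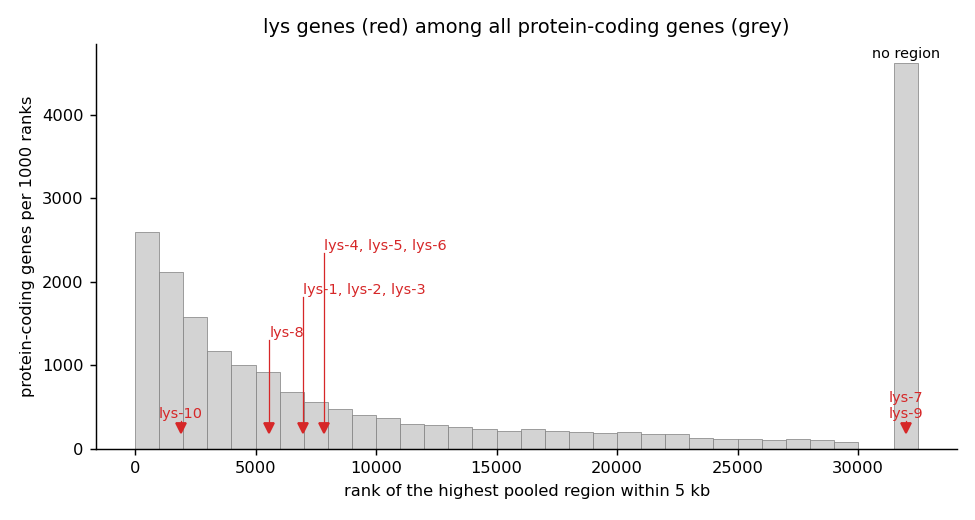
Number of protein-coding genes (grey bars, 1000 ranks each) by the rank of their highest pooled region within 5 kb, with genes that had none at the far right; red markers give the lys genes. lys-10 sits at rank 1909, lys-8 at 5569, lys-1 to lys-3 at 6959 and lys-4 to lys-6 at 7833, and lys-7 and lys-9 are among the genes with none.

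Of all the lys genes, lys-8 had the highest region at its own promoter. The gene lies at chrII:5586178-5587651 on the plus strand. The pooled region chrII:5585744-5586143 had its summit 234 bp upstream of the start, between protein-coding genes. Its pooled signal was 54.1 at rank 5569, which is 1364 ranks past the last optimal region and 77.1% of the lowest optimal signal. The deposited −log10 q was 4.10, the highest value in the pooled list, which 6361 regions share. In replicate 1 the overlapping region had a signal of 22.3 at rank 6174, with the summit again 234 bp upstream, and in replicate 2 a signal of 29.5 at rank 6384, with the summit 229 bp upstream. The replicates therefore placed the same stretch at like ranks with summits 5 bp apart. Over all promoters, 17.6% of genes had a higher pooled promoter region than lys-8.

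The sequence before lys-8 printed above holds TGATAA 4 times, the first match beginning 223 bp and the last 126 bp upstream of the start. The matches nearest the summit begin 11 and 32 bp past it. Neither GTCTG nor GGCGC, the letters searched for Smads, is in this stretch or at the summit. The surroundings of lys-8 were also the densest of the 6 places, with 11 pooled regions, or 0.959 per kb, against 0.299 per kb over the genome. Of these 11, 1 lay upstream of lys-8 and 1 in its coding sequence, while 2 lay in C17G10.13 and 7 in cdc-14, which encodes a protein phosphatase. The next highest, in the coding sequence of cdc-14 and 4419 bp past the lys-8 start, had a signal of 44.6 at rank 6759. It was at rank 8213 in replicate 1 and 6644 in replicate 2. The nearest optimal region lay 6120 bp past the end of lys-8, at rank 633 with a signal of 244.7, and 344 bp upstream of the start of cdc-14. That region was thus outside the 5000 bp distance and belonged by position to a different promoter.

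**Figure D2:**
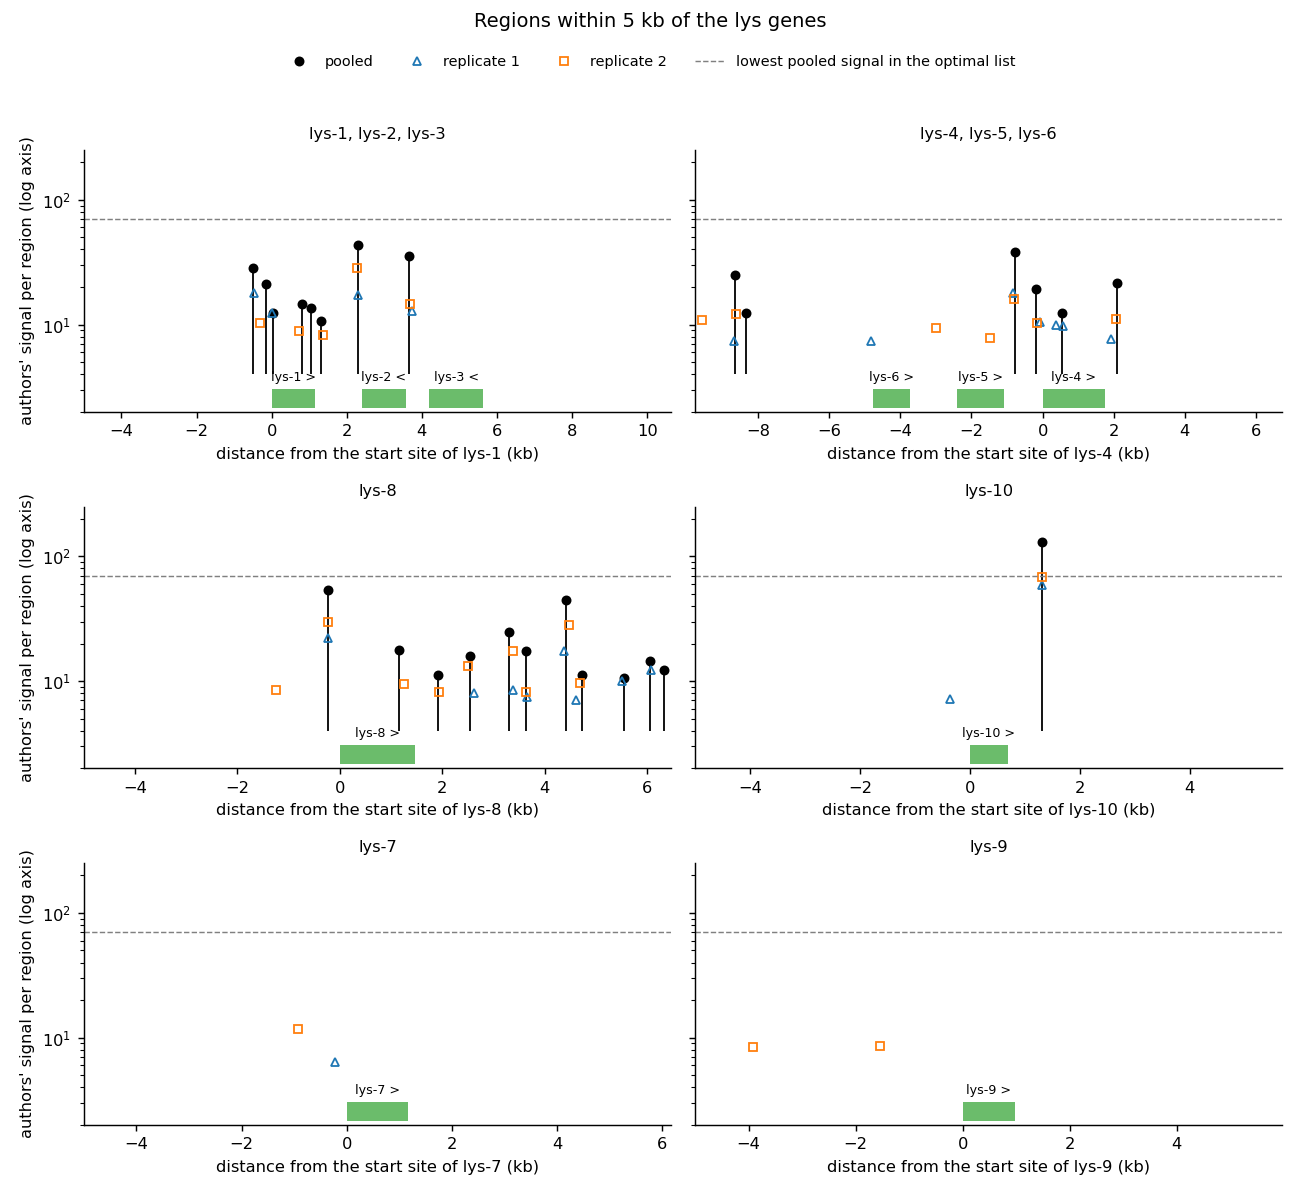
Signal of each region (log axis) within 5 kb of the lys genes against distance from the start site of the gene named on each horizontal axis (kb, positive downstream of that start); black points are the pooled list, blue triangles replicate 1, orange squares replicate 2, green bars the genes with their direction, and the dashed line the lowest signal in the optimal list, 70.1. A single pooled region, past lys-10, is above the line at 129.5, and the next highest, before lys-8, is at 54.1.

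Just 1 optimal region lay near a lys gene, and it was nearer to histone genes than to lys-10. The gene lys-10 spans chrIV:8332826-8333518 on the plus strand, and the region chrIV:8334061-8334190, 130 bp wide, had its summit 1317 bp downstream of the start and 625 bp past the end of the gene. The pooled signal was 129.5 at rank 1909, the replicate 1 signal 59.1 at rank 1693, and the replicate 2 signal 68.3 at rank 2297. Both replicates placed it well within their first 4205 regions, with summits 1318 and 1321 bp past the lys-10 start. It lies in the 321 bp between the histone genes his-31 and his-32, which are transcribed away from each other, 160 bp upstream of the start of his-31. The end of lys-10 and his-31 are separated by 153 bp.

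Upstream of lys-10 the pooled list had no region for 13394 bp, and the replicate 2 list none for 10011 bp. Replicate 1 had a weak one 363 bp upstream, with a signal of 7.12 at rank 24013. The count of 1 of 10 lys genes with an optimal region therefore rests on a region in the upstream DNA of histone genes. Of the 36-base stretches within 5000 bp of lys-10, 38.1% occur elsewhere in the genome, against 0% in the printed window at the summit. No source used here gives the read length, and the effect of repeated sequence on these regions was not tested. None of the 7 searched motifs was in the window, which has a GC content of 46.4%, against 26.5% to 36.4% in windows of the same length at the summits before lys-8, before lys-2, between lys-1 and lys-2 and between lys-4 and lys-5.

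The cluster of lys-1, lys-2 and lys-3 had 8 pooled regions and none in the optimal list. The genes span chrV:10277904-10279056 on the plus strand, chrV:10280307-10281474 on the minus strand and chrV:10282100-10283544 on the minus strand. The highest region, chrV:10279996-10280395, lay between lys-1 and lys-2, which are transcribed towards each other, with its summit 111 bp past the 3′ end of lys-2. Its pooled signal was 43.3 at rank 6959, with a −log10 q of 2.91. The region was at rank 8242 with a signal of 17.3 in replicate 1 and at rank 6688 with a signal of 28.2 in replicate 2. In the pooled list and in replicate 2 this was the highest region of the cluster, near the end of lys-2 and 1140 bp past that of lys-1. In replicate 1 the highest was instead the one 469 bp upstream of the lys-1 start, at rank 7869. The printed window between lys-1 and lys-2 held none of the 7 motifs.

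At the promoters in the cluster, the region before lys-2 ranked above that before lys-1 in the pooled list and in replicate 2 but below it in replicate 1, and lys-3 had none. The region before lys-2, with its summit 83 bp upstream of the start, had a pooled signal of 35.2 at rank 8585, and was at rank 11867 in replicate 1 and 14514 in replicate 2. Its printed window holds 2 matches to TGATAA, 1 of them within a CTTATCA. For lys-1, a gene induced on infection with Serratia marcescens, the highest promoter region was 497 bp upstream of the start, with a pooled signal of 28.2 at rank 10723. The overlapping region was at rank 7869 with a signal of 18.0 in replicate 1 and at rank 22187 with a signal of 10.3 in replicate 2. The replicates thus differed more at lys-1 than at lys-8. A second lys-1 region, 164 bp upstream, was at pooled rank 14715, and 3 more in its coding sequence were at ranks 22025 to 26154. In none of the 3 lists did any region lie upstream of lys-3 nearer than 7725 bp. The nearest optimal region to the cluster, at rank 2506, lay 9516 bp from lys-3, 191 bp upstream of the start of the collagen gene col-149.

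The cluster of lys-4, lys-5 and lys-6 had 6 pooled regions and none in the optimal list. Its genes span chrIV:11621429-11623174, chrIV:11624252-11625582 and chrIV:11626910-11627947, all on the minus strand. The highest region, chrIV:11623750-11624149, lay between lys-4 and lys-5 with its summit 776 bp upstream of the lys-4 start and 302 bp past the end of lys-5. Its pooled signal was 38.3 at rank 7833, with a −log10 q of 2.54. Replicate 1 had it at rank 7856 with a −log10 q of 2.46, and replicate 2 at rank 12955 with a −log10 q of 0.844. Its printed window holds 2 matches to TGATAA and 1 to CACGTG, and the CACGTG begins 14 bp past the summit.

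A weaker region 180 bp upstream of lys-4 was at pooled rank 16203, and 1 in an intron of lys-4 at rank 25876. The other pooled regions of the cluster lay at other genes. Those at ranks 12279 and 26169 had summits 3 and 319 bp past the start of F58B3.4. The one at rank 14380 lay 73 bp upstream of the start of dsl-5. At lys-5 and lys-6 the promoters held no pooled region. Replicate 2 alone had a region 591 bp upstream of lys-5, at rank 24498, and replicate 1 alone had one 49 bp upstream of lys-6, at rank 22854. Each of these weak regions was thus seen in a single replicate. Repeated sequence was most common in lys-5 and lys-6 among the 10 genes: 34.0% of the 36-base stretches in lys-5 and 44.0% of those in lys-6 occur elsewhere in the genome, against 3.16% in lys-4, 0.912% in lys-10 and 0% in lys-1, lys-2, lys-3, lys-7, lys-8 and lys-9. These shares cover the genes and not their promoters. The promoters without a pooled region were those of lys-3, lys-5, lys-6, lys-7, lys-9 and lys-10. The part of repeated sequence in these values was not tested. The nearest optimal region to the cluster was at rank 661, 7850 bp from lys-6 and 310 bp upstream of the start of mars-1, which encodes a methionyl-tRNA synthetase.

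**Figure D3:**
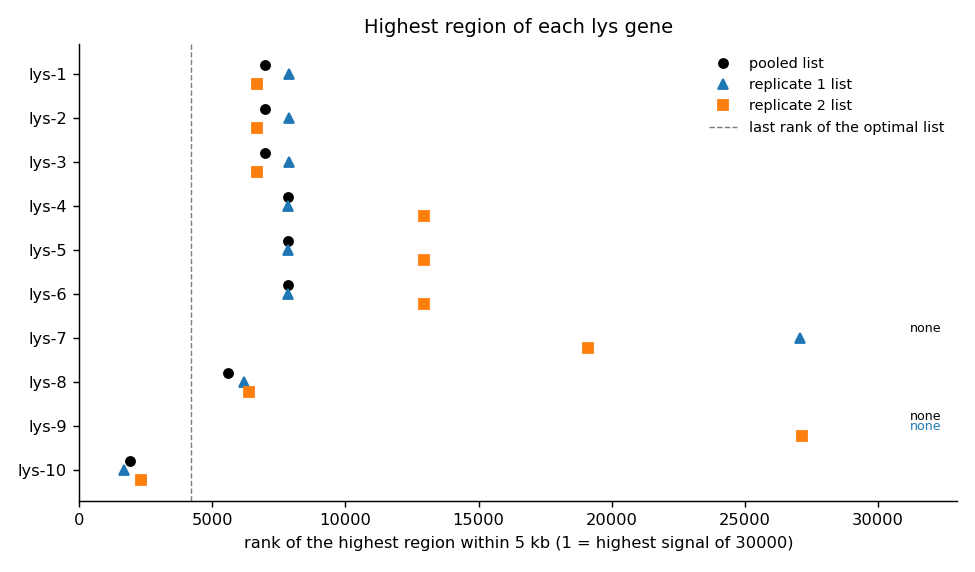
Rank of the highest region within 5 kb of each lys gene in the pooled list (black circles), the replicate 1 list (blue triangles) and the replicate 2 list (orange squares), where rank 1 has the highest signal; the dashed line marks rank 4205, the last of the optimal list, and "none" a list with no region. lys-10 is left of the line in all 3 lists, and the replicates lie farther apart at lys-4 to lys-6, ranks 7856 and 12955, than at lys-8, ranks 6174 and 6384.

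The genes lys-7 and lys-9 had no pooled region within 5000 bp. lys-7, which contributes to defence against several bacterial pathogens, spans chrV:3481432-3482600 on the minus strand and lies in a stretch of 42805 bp with no pooled region, and 12.2% of genes lie in a stretch at least as long. Replicate 1 had a region 218 bp upstream of lys-7 with a signal of 6.36 at rank 27100, and replicate 2 had one 927 bp upstream, in the coding sequence of srbc-33, with a signal of 11.7 at rank 19102. These regions did not overlap, so the count of lys-7 in both replicate lists rests on separate weak regions. The sequence before lys-7 printed above holds 1 TGATAA, within a CTTATCA, beginning 187 bp upstream of the start, and the only GTAAACA among the lys promoters, beginning 97 bp upstream. No 36-base stretch of lys-7 occurs elsewhere in the genome.

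For lys-9, the gene farthest from any optimal region, 41252 bp separated it from the nearest one. It had no region in the pooled list or in replicate 1, within stretches of 41672 and 41843 bp that held none. Of all genes, 12.7% lie in a pooled stretch at least as long. Replicate 2 had 2 weak regions, 1537 and 3912 bp upstream, at ranks 27149 and 27819 of 30000. The second lay in the coding sequence of clec-11, a C-type lectin gene. Both of these were among the weakest regions of that list.

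Counted by region and not by gene, the 6 places held 26 different pooled regions, 22 of replicate 1, 25 of replicate 2 and 1 of the optimal list. Of the 26 pooled regions, 12 were within 5000 bp of more than 1 lys gene, and 13 had a lys start as their nearest start. By position, 12 lay in coding exons, 1 in a 3′ UTR, 3 in introns and 10 between protein-coding genes. Both replicate lists overlapped 17 of the 26, or 65.4%, against 64.2% of all pooled regions. Of the others, 4 overlapped replicate 1 alone and 5 replicate 2 alone. Over the 76.47 kb of the 6 places, pooled regions numbered 0.340 per kb, against 0.299 per kb over the genome, and optimal regions 0.0131 per kb, against 0.0419 per kb. The lys genes were thus near the genome in how often a pooled region was called and below it in optimal regions, of which there was 1.

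The distance of 5000 bp splits the regions as follows. In the pooled list the farthest region counted was 4854 bp from lys-8, at rank 26366, and the nearest pairing of a gene and a region not counted was lys-6 with the region at rank 14380, 5828 bp away, which was counted for lys-4 and lys-5. In the optimal list the region counted was 625 bp from lys-10, and the nearest not counted was the one 6120 bp from lys-8.

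Promoter sequence was compared between the lys genes and all 19973 protein-coding genes over 250 bp before to 50 bp after the start, on both strands. TGATAA occurred in 9 of 10 lys promoters, all but lys-4, against 30.2% of all promoters. CTTATCA, which contains the reverse complement of TGATAA, occurred in 6 of 10, those of lys-1, lys-2, lys-6, lys-7, lys-9 and lys-10, against 9.19%. The promoter of lys-8 held 4 matches to TGATAA, more than any other lys promoter, and that of lys-9 held 3. Of the 4 genes with a pooled region at the promoter, lys-1, lys-2 and lys-8 had TGATAA and lys-4 did not. The 6 genes without one, lys-3, lys-5, lys-6, lys-7, lys-9 and lys-10, all had it. The windows searched here are shorter than the promoters used to count regions. The highest lys-4 region, 776 bp upstream, lies outside them, and the window at its summit held 2 matches to TGATAA. A match is a description of these letters and does not show that a factor binds there.

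Among the Smad letters, GTCTG occurred in 3 of 10 lys promoters, those of lys-2, lys-3 and lys-5, against 28.5% of all promoters. CAGACA, which contains the reverse complement of GTCTG, occurred in that of lys-5 alone, against 14.2%. GGCGC occurred in 0 of 10, against 14.1%. GTAAACA occurred in 1 of 10, against 4.77%, and CACGTG in 0 of 10, against 5.82%. The share with GTCTG was thus near the background, and the others rest on 0 or 1 promoter.

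**Figure D4:**
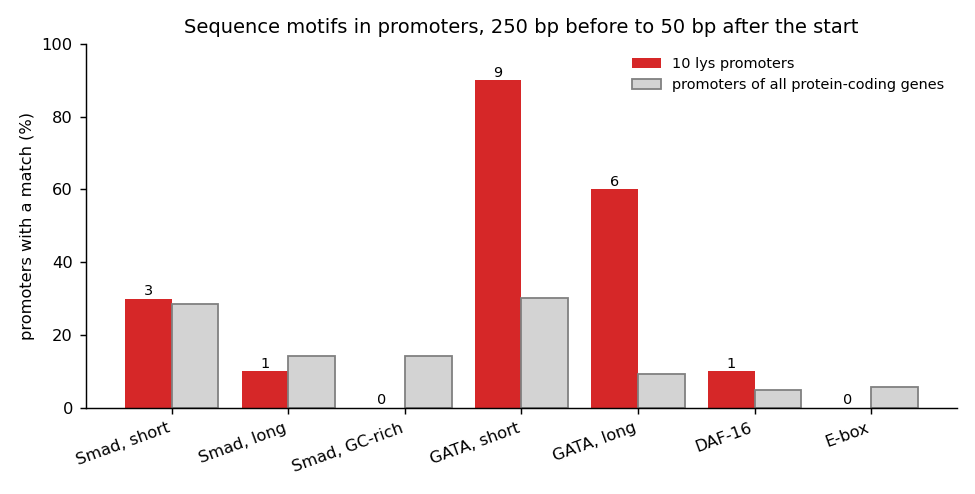
Share of promoters (250 bp before to 50 bp after the start) that hold each searched motif, for the 10 lys genes (red, with the number of genes above the bar) and all 19973 protein-coding genes (grey). The short GATA motif is in 9 lys promoters against 30.2% of all promoters and the long one in 6 against 9.19%, while the short Smad motif is in 3 against 28.5%.

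Over all 26 summits TGATAA was near its background share, unlike in the promoters. The searches are not alike, since the summit windows are shorter and are not placed by gene starts. Only 13 of the 26 summits had a lys start as their nearest. In windows of 75 bp to either side of the 26 pooled summits near lys genes, TGATAA occurred in 5, or 19.2%, against 18.1% of all 30000 pooled windows. The nearest starts to these 5 were those of lys-8, lys-4, lys-2, lys-1 and C17G10.13. CTTATCA occurred in 2, against 6.48% of all pooled windows. GTCTG occurred in 1 of 26, against 17.8%, and that 1 was the region at F58B3.4 near lys-6. CAGACA and GGCGC occurred in none, against 7.84% and 12.4%. GTAAACA occurred in 2, against 2.40%, and CACGTG in 1, against 4.75%. The TGATAA share over all 26 summits, those nearest to other genes included, was thus near that of all pooled regions. The 5 highest windows, from lys-10, lys-8, cdc-14, the end of lys-2 and lys-4, held no Smad letters. That these letters are absent from a window says nothing of whether SMA-3 was there.

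The invertebrate-type lysozyme genes ilys-1 to ilys-6 were counted in the same way. Of the 6, 0 had an optimal region, against 38.6% of all protein-coding genes, and 5 a pooled one, against 76.9%. The highest was at ilys-5, with its summit 69 bp upstream of the start, a signal of 45.2 and rank 6680. It was at rank 10790 in replicate 1 and 14101 in replicate 2. ilys-1, ilys-2 and ilys-3 shared their highest region at rank 11629, ilys-4 had its highest at rank 16308, and ilys-6 had none in any list. Across both lysozyme families, 16 genes, no promoter held an optimal region, against 14.3% of all genes.

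The caenopore genes spp-1 to spp-23 encode saposin-like proteins that make pores in bacterial membranes. Of these 23 genes, 17 had an optimal region within 5000 bp, against 38.6% of all genes, and 20 a pooled one, against 76.9%. Neighbouring members share regions: spp-2, spp-3 and spp-6 have the same highest one, as do spp-4 and spp-5, spp-17 and spp-23, and spp-19 and spp-20. An optimal region in the promoter was found for 3, spp-3, spp-8 and spp-14, against 14.3% of all genes. The highest was near spp-16 at rank 23 and lay 220 bp upstream of sec-61.G. The next were near spp-1 at rank 840, 335 bp upstream of umps-1, and near spp-15 at rank 1504, 109 bp upstream of cebp-2. Each of these 3 regions was nearer to the start of another gene than to that of the caenopore gene.

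A list of 14 regulators of immune effector genes comprised the intestinal GATA factor genes elt-2 and elt-7, genes of the p38 cascade and other factors. All 14 had a pooled region, against 76.9% of all genes, and 11 an optimal one, against 38.6%. In 7 an optimal region lay in the promoter, including elt-2 at rank 2704. The 3 highest were tir-1, sek-1 and zip-2. The region within 5000 bp of tir-1, an adaptor of the p38 cascade, was rank 1 of the list and lay 290 bp upstream of the ribosomal protein gene rpl-3. The one near sek-1, a MAP kinase kinase, was rank 172 and lay 370 bp upstream of eef-1A.2. The one at zip-2, a bZIP factor, was rank 204 and lay 211 bp from a zip-2 start. Optimal regions in the promoter were thus held by 7 of 14 regulators, 3 of 23 caenopore genes and 0 of 10 lys genes, beside 14.3% of all genes. No test was made of these differences. The counts are not matched for annotated starts per gene, of which each lys gene has 1.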

How the data were processed

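The authors deposited region lists on ce11 for each replicate, for the pooled replicates and as an optimal list, per the labels. Column 7 holds the signal their caller gave a region and column 9 its −log10 q, both as deposited and neither rescaled here. The listing deposited with the samples names 1 control shared by both. Aligner, peak caller, versions, the values of thresholds, including that for IDR, and read depth were not given in the sources used here. Lists on ce10 were not used, and 0 sample columns were left unmapped.

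Regions were ranked by signal within a list and assigned by summit to genes of Ensembl release 115 on WBcel235, and no region passed a chromosome end. Sequences came from the RefSeq genome of that assembly. Scripts used Python 3.11.15, pandas 2.3.3 and numpy 2.4.6, and counting was checked on simulated data. The named genes were all lys and ilys genes, the 3 caenopore and regulator genes with the highest optimal regions, and the gene with the start nearest to each highest lys region. Genes outside this rule, named for position, were chosen after their values were seen. Members, lists and motifs were chosen with earlier results of these data known. With 1 group, no test was made. A planned comparison of lys protein sequences was not made. Alternatives were other distances, promoter windows, overlap rules, the upper part of each list and single replicates.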

Additional observations from a re-analysis of the deposited data

How the results depend on the processing

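Of 23 recomputed counts of lys genes, 22 stayed within 1.5 times the value reported. The exception was the optimal count, which was 4 of 10 with summits within 10000 bp, through lys-3, lys-6, lys-8 and lys-10, against 1 within 5000 bp. From the highest 4205 regions of either replicate alone it was 1 both times. Some of the 22 could not change: with 0 optimal promoter regions, a narrower promoter window or the upper part of the optimal list must give 0 again. For single genes, 11 of 31 recomputed ranks of the highest region moved by more than the SD between the ranks of the 2 replicates. That SD comes from the single-replicate ranks that are themselves judged, so a gene with close replicates can count as moved. At lys-8, ranks 6174 and 6384 both did. Regions shared by several lys genes were counted once per gene. The moves over 1.5 times were these: within 10000 bp the highest region was at rank 2506 for lys-3, 661 for lys-6 and 633 for lys-8, and from replicate 2 alone it was at rank 12955 for lys-4 to lys-6. Within 2000 bp lys-6 had no pooled region. No paired analysis was possible because there is 1 group and no contrast between groups. Depth is unknown and the pooled and replicate lists each hold exactly 30000 regions, so the limit of detection cannot be stated.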
